A study of Mus musculus with 12 samples.

Results

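Coro6, Aifm3, Mapk11, E130012A19Rik, Pltp, Wfs1 and Filip1 were 7 of the 652 genes listed for the hippocampus of BK KO and wild-type (WT) mice. They were chosen by the size of their measured difference in this comparison, so their hippocampal values are a description and carry no test. Aifm3, Pltp and Wfs1 were also 3 of the 561 genes listed for cortex. The tables name 1017 genes in all, of which 196 are in both. Levels are in FPKM, a fragment count scaled to transcript length and library size.

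BK KO mice (kcnma1-/-) carry a small CRISPR/Cas9 frameshift deletion on both alleles of Kcnma1, the gene of the BK potassium channel alpha subunit, in all tissues. They were bred from heterozygous parents, all animals had a C57BL/6 background, and the methods describe the mice taken for RNA as adult. Hippocampus and cortex were each sequenced from 3 BK KO and 3 WT mice, which gave 12 libraries. The labels name no drug or other treatment. As the methods read, both tissues came from the same mice, so the tissues are not independent samples of animals. Each table holds only genes that the authors called different in that tissue, so absence from a table does not show that a gene was unchanged, and the tissue labels could not be checked against a full set of marker genes.

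The 7 genes act in different parts of the cell. Coro6 encodes a coronin, a WD-repeat protein that binds actin filaments, and Filip1 encodes a protein that binds the actin cross-linker filamin A and is known from migrating cortical neurons. Aifm3 encodes a flavoprotein related to apoptosis-inducing factor, Mapk11 the beta isoform of the stress-activated p38 kinases, and E130012A19Rik (Epop in RefSeq) a nuclear protein that binds elongin and a Polycomb repressive complex. Pltp encodes phospholipid transfer protein, which is secreted and moves phospholipids between lipoproteins. Wfs1 encodes wolframin, a membrane protein of the endoplasmic reticulum with a part in calcium balance and the unfolded protein response, and is well known as a marker of CA1 pyramidal neurons.

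The genes are spread over 6 chromosomes in GENCODE M21 (GRCm38), none of them the chromosome 14 of Kcnma1. Coro6 lies on chromosome 11 from 77462411 to 77470484 and E130012A19Rik, a gene with 1 exon, on the same chromosome from 97627389 to 97629702. Mapk11 spans chromosome 15 from 89142486 to 89149628, and Aifm3 spans chromosome 16 from 17489611 to 17507485. Wfs1 runs on chromosome 5 from 36966104 to 36989205. Filip1, the longest at 197801 bp, runs on chromosome 9 from 79815051 to 80012851. Pltp occupies chromosome 2 from 164839518 to 164857711, and 495 bp of its exons overlap exons of Ctsa on the opposite strand. The sources do not state whether reads were counted by strand, so reads in that overlap cannot be told apart.

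RefSeq promoters (GRCm38.p6) were found for 6 of the 7 genes, E130012A19Rik being the exception. The promoters of 3 genes are printed because they span the range in base composition. They are the GC-rich promoters of Aifm3 and Mapk11 and the first promoter of Filip1, the poorest in GC of those found. Each is the part of the 250 bases before the RefSeq start that lies outside GENCODE exons, so some of the matches counted for Aifm3 and Mapk11 fall beyond the printed stretch. Capitals mark GC boxes (GGGCGG) and CRE cores (TGACG), on either strand. The Aifm3 sequence is chr16:17489427-17489610 (plus strand), the Mapk11 sequence is chr15:89149629-89149856 (minus strand) and the Filip1 sequence is chr9:80012852-80013101 (minus strand).
Aifm3: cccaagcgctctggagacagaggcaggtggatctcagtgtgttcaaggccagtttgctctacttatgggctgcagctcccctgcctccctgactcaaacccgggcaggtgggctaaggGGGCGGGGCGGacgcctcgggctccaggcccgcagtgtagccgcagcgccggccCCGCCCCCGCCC
Mapk11: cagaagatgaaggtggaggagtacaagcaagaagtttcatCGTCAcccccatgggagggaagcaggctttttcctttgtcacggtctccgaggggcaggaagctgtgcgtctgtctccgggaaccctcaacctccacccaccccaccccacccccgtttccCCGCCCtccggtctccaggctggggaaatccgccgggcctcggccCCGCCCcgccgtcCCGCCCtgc
Filip1: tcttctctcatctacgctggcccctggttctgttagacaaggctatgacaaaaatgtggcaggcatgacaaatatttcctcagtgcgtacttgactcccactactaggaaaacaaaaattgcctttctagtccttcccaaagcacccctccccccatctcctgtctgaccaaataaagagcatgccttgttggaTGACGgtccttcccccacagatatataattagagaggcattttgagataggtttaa

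Over the 250 bases before the start, GC content was 73.6% for Aifm3, 69.6% for Wfs1, 68% for Mapk11 and 67.2% for Coro6. It was 57.6% for Pltp and 45.2% for the first promoter of Filip1. Of the genes higher in BK KO hippocampus, Wfs1 was thus GC-rich and Filip1 GC-poor. The median over all 32851 promoters was 52.4%, and that over the 633 promoters of genes in the hippocampus table was 58.4%. The GC box, with overlapping matches counted, matched 8 times in Aifm3, 4 times in Mapk11, 4 times in Wfs1, and 1 time each in Coro6 and Pltp. It was in 32.7% of all promoters and in 51.0% of those of the hippocampus table. The CRE core matched 1 time in Mapk11, at -210 from the start, and 1 time in Filip1, at -56. Of all promoters 17.8% held it, and the full CRE (TGACGTCA), which contains it, was in 1.55% of all promoters and in none of the first promoters of these 6 genes. AP-1 (TGANTCA) and EGR (GCGNGGGCG) motifs each matched 1 time in Aifm3, and were in 6.75% and 4.70% of all promoters. CCAAT boxes matched in Pltp and Wfs1 and in 33.8% of all promoters. E-boxes (CACGTG, in 6.02% of all promoters) and TATA boxes (TATAAA, 12.4%) matched in none of these first promoters. These motifs were searched on both strands, and a match describes letters only.

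The targeted gene followed the labels in all 12 libraries. In hippocampus Kcnma1 was at 11.3, 10.6 and 9.67 FPKM in the libraries of WT mice 1 to 3, against 2.54, 2.82 and 2.81 FPKM in those of BK KO mice 1 to 3. In cortex it was at 12, 9.82 and 11.8 FPKM in the libraries of WT mice, against 3.09, 2.97 and 2.76 FPKM in those of BK KO mice. On the log2(FPKM + 1) scale, on which every fold change here is given and which understates the change of low genes, the difference was -1.63 (SE 0.10) in each tissue. No read counts were used here, so the depth behind each value is unknown. The labels do not say which hippocampus and cortex libraries came from the same mouse. SDs measure only the spread between these libraries, and the SEs also draw on the spread of the other listed genes.

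With a limma fit over all listed genes, 42.6% of the 652 hippocampus genes passed an unadjusted p under 0.05 and a log2 difference over 0.58 in size, 21.9% lower and 20.7% higher in BK KO. The 7 genes all passed, 5 of them lower and 2 higher, and nothing is read from that count because the genes were selected on this difference. Their median absolute difference was 1.05, with a range of 0.81 to 1.35, against 0.54 for all listed genes. In 79.9% of the listed genes, and in these 7, the genotypes did not overlap. The table leans to lower values in BK KO, with a median log2 difference of -0.27 over the listed genes. Rescaling each library to the median of the listed genes moved this to -0.16, while the 7 genes kept their directions and still passed. Rescaled differences were -1.09 for Coro6, -0.67 for Aifm3, -0.78 for Mapk11, -1.01 for E130012A19Rik and -0.69 for Pltp. They were 1.53 for Wfs1 and 0.99 for Filip1. Of these, only the value of E130012A19Rik lay within its range with a library left out. Rescaling raised the share of higher genes among those past the threshold from 48.6% to 84.8%. The listed genes were selected as different and lean lower, so rescaling to them can take out part of the genotype difference itself. The 7 genes were also expressed above most of the table, except Filip1: the median listed gene had a mean of 2.11 FPKM, and Wfs1 stood at rank 15 of 652.

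**Figure D1:**
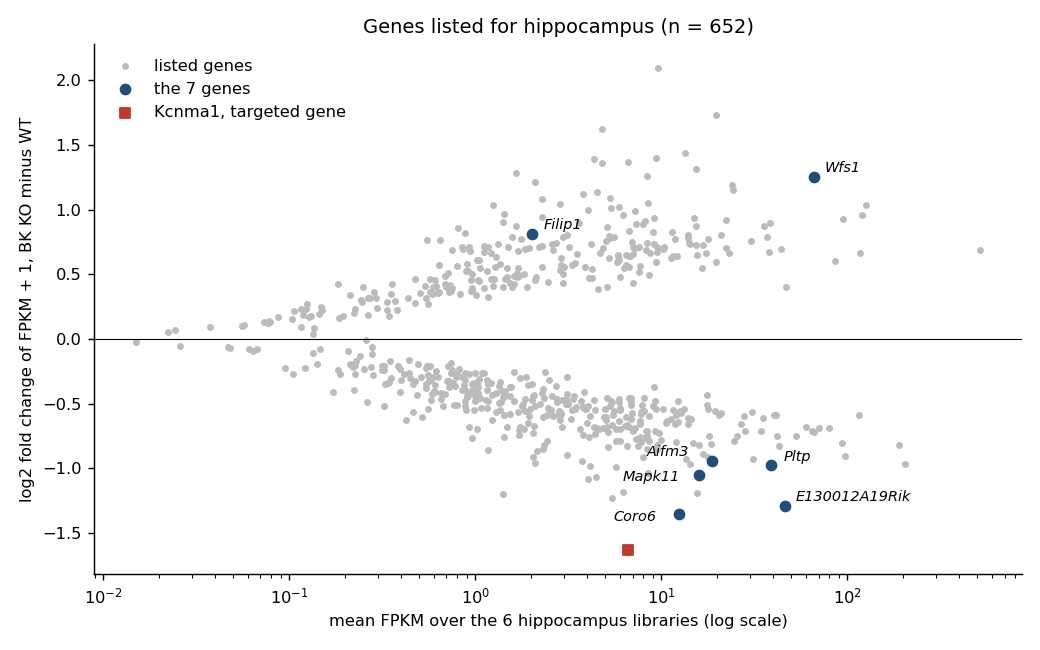
Mean FPKM over the 6 hippocampus libraries (log axis) against the log2 difference of FPKM + 1, BK KO minus WT, for the 652 listed genes. The 7 genes are blue, Kcnma1 is the red square, and 6 of the 7 lie to the right of the median listed level of 2.11 FPKM.

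The actin-associated genes went opposite ways. Coro6 was at 17.7, 19.9 and 16.7 FPKM in the hippocampus libraries of WT mice 1 to 3, against 9.56, 4.71 and 5.94 FPKM in those of BK KO mice 1 to 3. Each WT library was at least 7.10 FPKM above every BK KO library. The mean was 18.1 ± 1.67 FPKM in WT and 6.74 ± 2.52 FPKM in BK KO (SD, n = 3), a WT level 2.69 times that of BK KO and a log2 difference of -1.35 (SE 0.23). Among the listed genes, only Kcnma1 had a larger fall on the log2(FPKM + 1) scale, which understates the change of low genes. The WT libraries lay close together, with a coefficient of variation of 9.22%, while BK KO varied by 37.4%, chiefly because library 1 was above the other two. Leaving out any single library kept the difference between -1.60 and -1.15.

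Filip1, the partner of filamin A, was higher in BK KO and was the least expressed of the 7. It was at 0.879, 1.27 and 1.45 FPKM in the libraries of WT mice, against 2.66, 2.41 and 3.49 FPKM in those of BK KO mice. The lowest BK KO library was 0.964 FPKM above the highest WT library. The means were 1.2 ± 0.291 and 2.86 ± 0.565 FPKM (SD, n = 3), a ratio of 2.38 and a log2 difference of 0.81 (SE 0.15), which ran from 0.69 to 0.89 with any single library left out. At such a level the added 1 FPKM matters, and with 0.1 in its place the difference was 1.2.

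**Figure D2:**
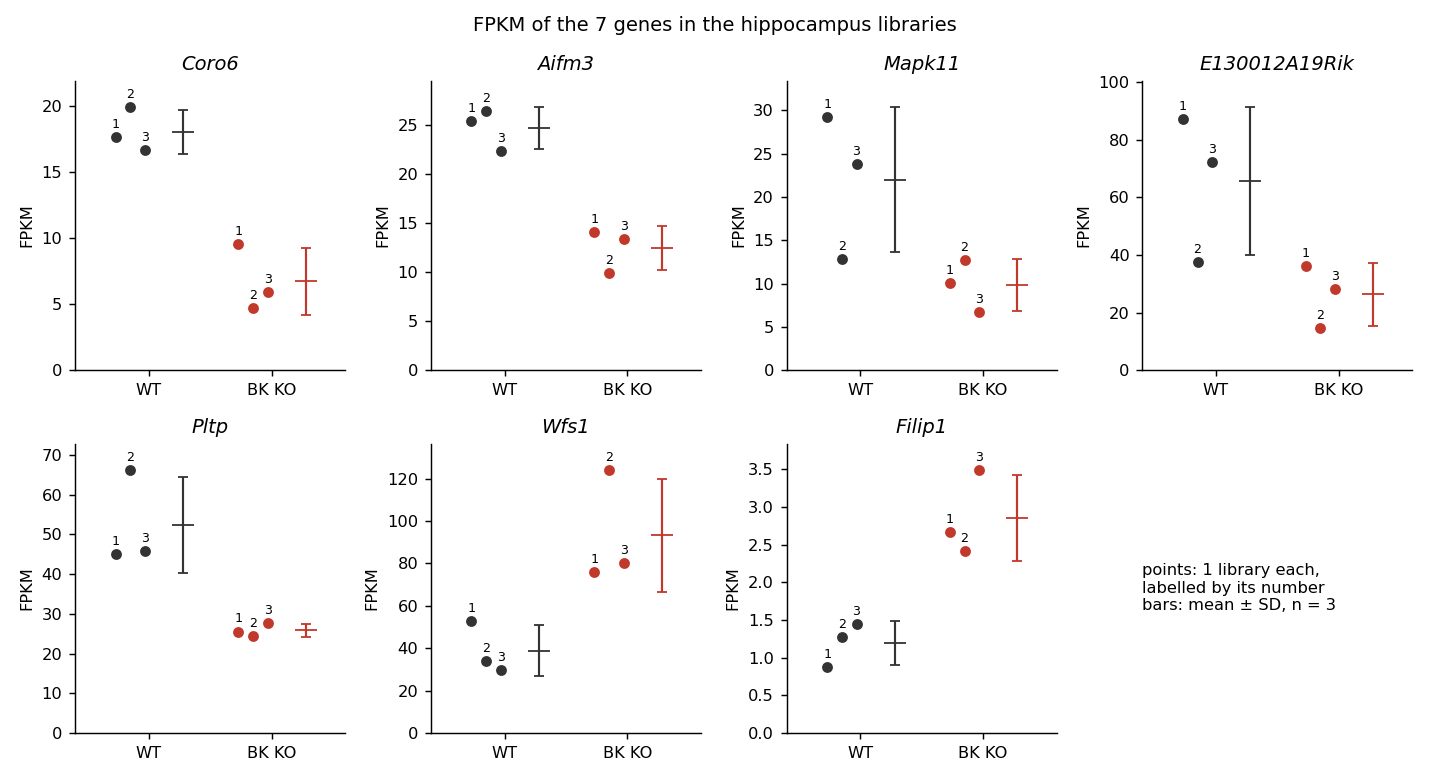
FPKM of each of the 7 genes in the 3 WT and 3 BK KO hippocampus libraries, 1 point per library with its number, and the mean ± SD (n = 3). No gene has overlapping genotypes, but Mapk11 and E130012A19Rik are separated by only 0.148 and 1.23 FPKM.

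Aifm3, the flavoprotein gene, was at 25.4, 26.4 and 22.4 FPKM in the hippocampus libraries of WT mice, against 14.1, 9.94 and 13.4 FPKM in those of BK KO mice. The genotypes were clear of each other by 8.24 FPKM. Means of 24.7 ± 2.11 and 12.5 ± 2.25 FPKM (SD, n = 3) gave a WT level 1.98 times that of BK KO and a log2 difference of -0.94 (SE 0.15), between -1.03 and -0.80 with a library left out. Of the 14 genes in a list of apoptosis-inducing factor relatives and mitochondrial apoptosis genes, 2 were in the hippocampus table and none in the cortex table. Apaf1, the scaffold of the apoptosome, rose from 1.5 ± 0.589 to 3.07 ± 0.593 FPKM (0.72 on the log2 scale). Bid, a BH3-only death agonist, was at 2.37 ± 0.0785 FPKM in WT and 3.58 ± 0.743 FPKM in BK KO (0.43) and did not pass. The annotation of the table itself put 22 listed genes under apoptotic process, Aifm3 among them, of which 10 were lower, 12 were higher and 12 passed the threshold. The share past the threshold over all listed hippocampus genes was 42.6%, and nothing is read from these counts.

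Mapk11, the p38 beta kinase gene, had the genotypes closest to each other. It was at 29.3, 12.9 and 23.9 FPKM in the libraries of WT mice, against 10.0, 12.7 and 6.72 FPKM in those of BK KO mice. WT library 2 lay only 0.148 FPKM above BK KO library 2, and the other WT libraries lay well above. Means of 22.0 ± 8.36 and 9.82 ± 3.0 FPKM (SD, n = 3) gave a log2 difference of -1.05 (SE 0.33). Without BK KO library 3 it was -0.83 (SE 0.35) and no longer past the threshold, and without WT library 2 it was -1.38. None of 22 other genes of the p38 cascade was in the hippocampus table. Mapk13, another p38 kinase, was the only gene of that list in the cortex table, at 0.732 ± 0.160 FPKM in WT and 0.342 ± 0.169 FPKM in BK KO (-0.37), and it did not pass.

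E130012A19Rik, the Polycomb partner, was the most variable of the 7 within each genotype. It was at 87.3, 37.5 and 72.4 FPKM in the libraries of WT mice, against 36.3, 14.7 and 28.1 FPKM in those of BK KO mice. WT library 2 was 1.23 FPKM above BK KO library 1, the narrowest point between the genotypes. Means of 65.7 ± 25.6 and 26.4 ± 10.9 FPKM (SD, n = 3) gave a WT level 2.49 times that of BK KO. The log2 difference of -1.29 (SE 0.41) had rank 3 among the falls on the log2(FPKM + 1) scale, which understates the change of low genes. The difference was -1.65 without WT library 2 and -0.93 at the other end of the range with a library left out. Under chromatin organization the table listed 9 genes, E130012A19Rik included, 8 lower and 1 higher, of which 2 passed the threshold. Over all listed hippocampus genes 42.6% passed and the median log2 difference was -0.27, and nothing is read from these counts.

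Pltp, the phospholipid carrier, was at 45.0, 66.2 and 45.9 FPKM in the hippocampus libraries of WT mice, against 25.5, 24.3 and 27.6 FPKM in those of BK KO mice. The BK KO libraries were nearly level, and the genotypes were 17.4 FPKM apart at the closest point. Means of 52.3 ± 12 and 25.8 ± 1.65 FPKM (SD, n = 3) gave a WT level 2.03 times that of BK KO and a log2 difference of -0.97 (SE 0.17). Without WT library 2, the highest, it was -0.79. In a list of 20 lipid transfer and lipoprotein genes, 2 were in the hippocampus table. Abca1, which loads cholesterol and phospholipid onto apolipoproteins, rose from 3.41 ± 0.475 to 5.98 ± 0.752 FPKM (0.66). Its relative Abca7 was at 4.84 ± 0.368 FPKM in WT and 3.02 ± 0.316 FPKM in BK KO (-0.54) and did not pass.

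Wfs1, the wolframin gene, was at 52.6, 33.9 and 29.8 FPKM in the hippocampus libraries of WT mice, against 75.9, 124.0 and 80.1 FPKM in those of BK KO mice. Every BK KO library was at least 23.2 FPKM above the WT libraries, and library 2 was far above the other BK KO libraries. Means of 38.8 ± 12.2 and 93.3 ± 26.7 FPKM (SD, n = 3) gave a ratio of 2.41 and a log2 difference of 1.25 (SE 0.27), between 1.03 and 1.49 with a library left out. None of 21 genes of endoplasmic reticulum stress was in either table. Of the 44 hippocampus genes annotated to the endoplasmic reticulum, Wfs1 and Aifm3 among them, 26 were lower and 18 higher, and 17 passed the threshold. The whole hippocampus table had 42.6% past the threshold and a median log2 difference of -0.27, and nothing is read from these counts.

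Because Wfs1 marks CA1 neurons, its values are set beside another CA1 marker of the hippocampus table. Nov, a secreted matrix-associated protein, was at 33.5, 28.5 and 18.3 FPKM in WT libraries 1 to 3, and its BK KO libraries gave 32.3, 52.1 and 56.2 FPKM. BK KO library 1 lay below WT library 1, so the genotypes overlapped. Nov rose from 26.8 ± 7.76 to 46.8 ± 12.8 FPKM (0.79). In bulk tissue a change in the number of cells of a type and a change in RNA per cell cannot be told apart, and the part of CA1 tissue content in the Wfs1 difference was not tested.

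Other cell type lists gave few listed genes. Over 18 marker lists with 169 entries, Wfs1 left out, 16 entries were in the hippocampus table, of which 3 passed the threshold lower and 8 higher. Of all listed hippocampus genes 21.9% passed lower and 20.7% higher, and nothing is read from these small counts. The interneuron markers Gad2 and Reln, which encode a GABA-synthesizing enzyme and a secreted matrix protein, rose from 14.7 ± 1.79 to 33.8 ± 3.84 FPKM (1.15) and from 5.16 ± 0.597 to 11.9 ± 2.40 FPKM (1.05). The CA2 markers Necab2 and Fgf2 also rose, by 0.93 and 0.77, and Opalin of oligodendrocytes fell by 0.93. Among CA3 markers, Cdh24 fell by 0.59 and Plagl1 rose by 0.58, and Gpr101 of the subiculum rose by 1.03. Akap7 of dentate granule cells (-0.51), Satb1 of glutamatergic neurons (-0.47) and Tek of endothelium (-0.54) did not pass. No mossy cell, astrocyte, microglia, choroid plexus, thalamus or blood marker was listed. The part of cell composition in the differences of the 7 genes was not tested.

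A BK KO hippocampus library stood apart in a pituitary gene. Growth hormone, Gh, was listed at 0 in all WT libraries and reached 0.120, 0.184 and 57.5 FPKM in BK KO libraries 1 to 3. Without library 3 the log2 differences of the 7 genes were -1.29 for Coro6, -1.0 for Aifm3, -0.83 for Mapk11, -1.38 for E130012A19Rik, -1.02 for Pltp, 1.34 for Wfs1 and 0.69 for Filip1. Of these, Mapk11 no longer passed the threshold. The striatal marker Tac1 was at 3.97, 3.29 and 26.6 FPKM in the libraries of WT mice, against 36.4, 18.9 and 28.2 FPKM in those of BK KO mice, so WT library 3 also differed from its group in a gene of another region. Without WT library 3 all 7 genes kept their direction and passed.

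**Figure D3:**
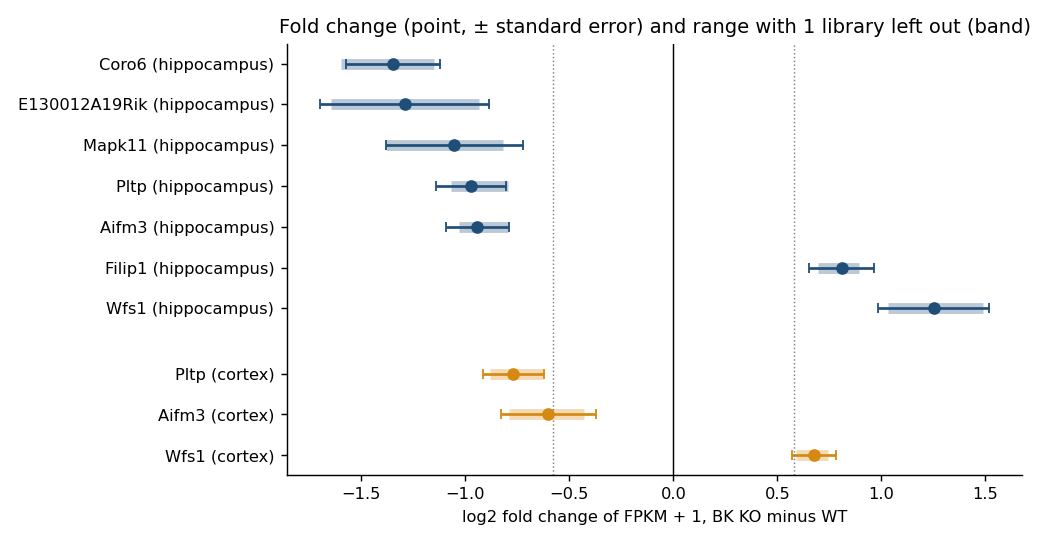
Log2 difference of FPKM + 1 (BK KO minus WT) for the 7 genes in hippocampus and for the 3 listed in cortex, as points with standard errors, and the range with any single library left out as bands. Dotted lines mark 0.58 in either direction, and the cortex band of Aifm3 reaches -0.43.

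In cortex 3 of the 7 genes were listed, each in the same direction as in hippocampus. As the methods read, both tissues came from the same mice, so this is not a repeat in other animals. The other 4 were not in that table, which gives no value for them. Of the 561 listed cortex genes 30.8% passed the threshold, 20% lower and 10.9% higher, and in 80.6% the genotypes did not overlap. All 3 genes passed, and 2 of the 3 had genotypes that did not overlap, but listing in cortex is itself a selection on this difference and nothing is read from the counts. The median absolute log2 difference of the 3 was 0.68, with a range of 0.60 to 0.77, and that of all listed cortex genes was 0.47. Rescaling to the median of the listed genes moved the median log2 difference of the table from -0.33 to -0.08. The share of higher genes among those past the threshold went from 35.3% to 90%. Because the listed genes lean lower in BK KO, rescaling can take out part of the genotype difference, and the rescaled values below carry that limit.

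Pltp was at 41.2, 52.6 and 36.7 FPKM in the cortex libraries of WT mice, against 22.9, 25.2 and 26.5 FPKM in those of BK KO mice. As in hippocampus, the BK KO libraries were close together and below every WT library, here by 10.2 FPKM. Means of 43.5 ± 8.19 and 24.9 ± 1.82 FPKM (SD, n = 3) gave a log2 difference of -0.77 (SE 0.15). On rescaling, with the limit given above, it shrank to -0.27 and no longer passed. Lpl, lipoprotein lipase, was the only gene of the lipid list in the cortex table and fell from 3.98 ± 0.843 to 2.07 ± 0.732 FPKM (-0.71).

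Wfs1 was at 34.7, 38.9 and 37.6 FPKM in the cortex libraries of WT mice, against 58.2, 67.5 and 54.5 FPKM in those of BK KO mice. The genotypes were 15.6 FPKM apart at the closest point, and the WT libraries varied by only 5.84%. Means of 37.1 ± 2.17 and 60.1 ± 6.72 FPKM (SD, n = 3) gave a ratio of 1.62 and a log2 difference of 0.68 (SE 0.11), between 0.59 and 0.74 with a library left out. On rescaling it grew to 1.18.

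Aifm3 was at 19, 22.7 and 30.2 FPKM in the cortex libraries of WT mice, against 20.0, 13.7 and 12.7 FPKM in those of BK KO mice. BK KO library 1 lay above WT library 1, so the genotypes overlapped. Means of 24.0 ± 5.70 and 15.5 ± 3.96 FPKM (SD, n = 3) gave a log2 difference of -0.60 (SE 0.23). It passed in 2 of the 6 fits with a library left out and failed without WT library 2 (-0.63) or 3 (-0.43) and without BK KO library 2 (-0.53) or 3 (-0.48). On rescaling it was -0.11.

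The cortex libraries differed in skeletal muscle genes, a tissue outside the brain. Of 18 muscle markers 14 were in the cortex table, all lower in BK KO and 9 past the threshold. Of all listed cortex genes 30.8% passed, 20% lower. The summed level of the 14 markers was 28.6 to 92.6 FPKM in WT against 7.85 to 10.2 FPKM in BK KO. Their WT means ran as low as 0.0994 FPKM, for Mylk2. Tnnc2 was at 25.2, 5.01 and 4.16 FPKM and Ckm at 13.9, 3.15 and 3.47 FPKM in WT libraries 1 to 3. WT library 1 was not the highest for each marker, as Myh4 was at 0.103, 1.07 and 0.815 FPKM. Other cell type markers in the cortex table were few. Gfap of astrocytes (0.97), Bok (0.71) and Gad2 (0.69) rose, while Opalin of oligodendrocytes and the haemoglobin gene Hba-a2 fell by 0.93 and 1.11, and Cdh24 (-0.54), Gjb1 (-0.57), Itgam (-0.48) and Tek (-0.46) did not pass. Of the 18 muscle markers, 1 was listed in hippocampus, at 0.0248 to 0.0539 FPKM in WT and 0.0936 to 0.293 FPKM in BK KO. The part of muscle RNA and of these cell types in the cortex values of Aifm3, Pltp and Wfs1 was not tested.

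**Figure D4:**
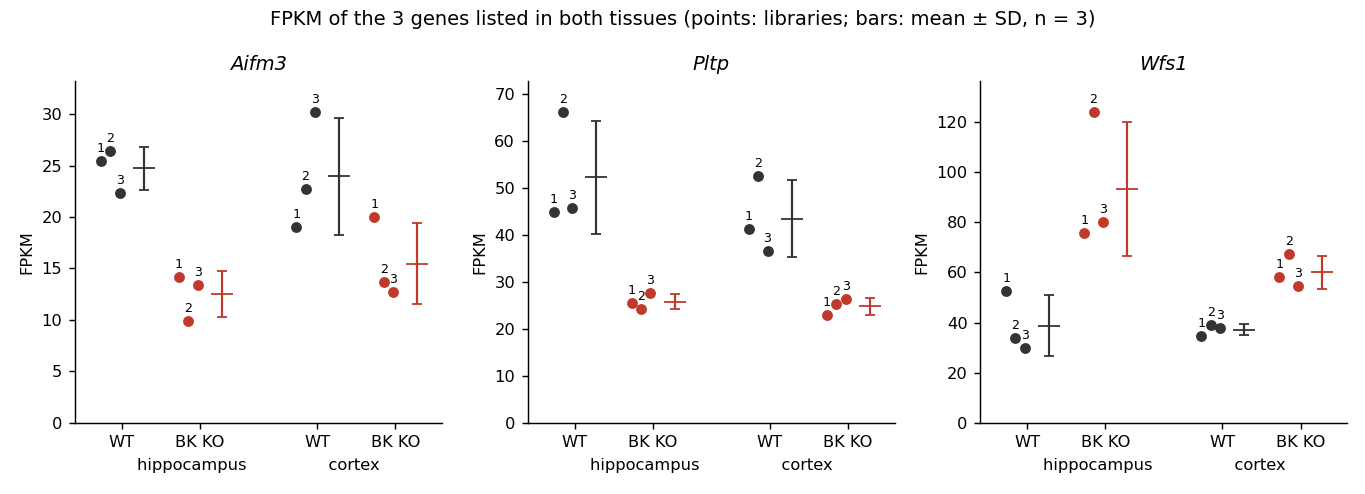
FPKM of Aifm3, Pltp and Wfs1 in hippocampus and cortex by genotype, 1 point per library with its number, and the mean ± SD (n = 3). BK KO libraries lie below WT for Pltp and above WT for Wfs1 in both tissues, and only Aifm3 in cortex has overlapping genotypes.

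The tables were normalized separately, so levels in the tissues are set side by side without a test. In WT the mean in hippocampus was 1.03 times that in cortex for Aifm3, 1.2 times for Pltp and 1.05 times for Wfs1, and the libraries of the tissues overlapped for all 3. In BK KO the ratios were 0.808 for Aifm3, 1.04 for Pltp and 1.55 for Wfs1. Only for Wfs1 in BK KO did the libraries not overlap, at 75.9 to 124.0 FPKM in hippocampus and 54.5 to 67.5 FPKM in cortex. Whether a genotype difference differs between the tissues was not tested.

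The authors' normalized base means, pooled over the libraries of a genotype and not scaled to length, give the size of the signal behind these levels. In hippocampus they were 1769 in WT and 679 in BK KO for Coro6, 3247 and 1608 for Aifm3, 1318 and 582 for Mapk11, and 1121.5 and 615 for Pltp. E130012A19Rik had 2150.0 and 929. Wfs1 had 2557 and 6406, and Filip1, the lowest of the 7 on this scale too, had 182 and 430.2. They come from the same reads and are no further evidence.

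Within a genotype the 7 genes did not move as a group. In WT library 2, Mapk11 and E130012A19Rik were 0.66 and 0.71 log2 units below the WT mean, while Pltp was 0.36 above it. In BK KO library 2, E130012A19Rik and Coro6 were 0.71 and 0.39 below the BK KO mean, while Wfs1 and Mapk11 were 0.44 and 0.38 above it. Over the 21 pairs of genes, the correlation of these deviations across the 6 libraries ran from -0.93, for Mapk11 and Pltp, to 0.82, for Coro6 and Aifm3, with a median of 0.01. All pairs share the same 6 libraries, so these values are a description. Without WT library 2 the correlation of E130012A19Rik with Aifm3 went from 0.48 to 0.98 and that with Mapk11 from 0.32 to -0.48, so they rest on that library.

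**Figure D5:**
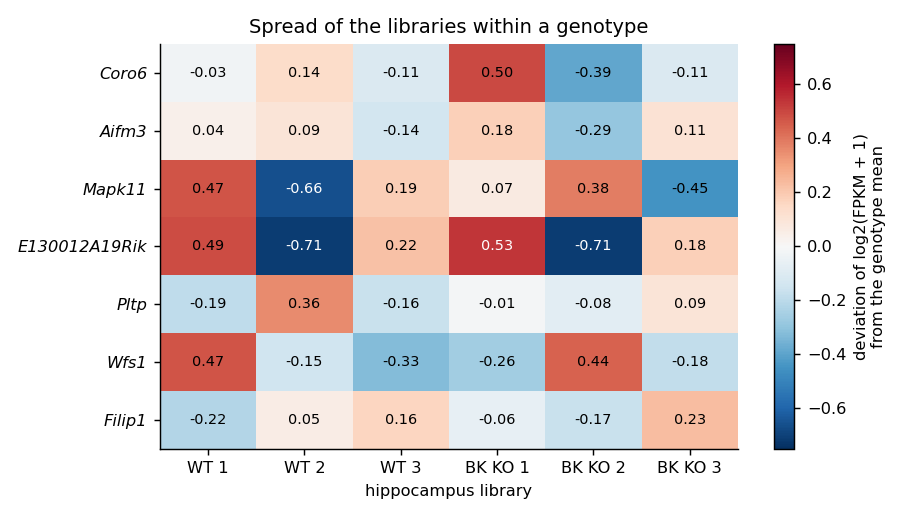
Deviation of log2(FPKM + 1) from the mean of its genotype for each of the 7 genes in each hippocampus library, as colour and number. E130012A19Rik has the lowest values, -0.71 in WT library 2 and in BK KO library 2, and no library is high or low for all 7 genes.

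For each gene the most similar listed genes were those with the highest correlation of the same deviations, among 216 genes with a mean of at least 5 FPKM. Leng8 (r = 0.98) and Nktr (0.96) were nearest to Coro6, and Arnt (0.95) and Tiam1 (0.93) were nearest to Aifm3. Unc13a (0.98), which primes synaptic vesicles, and the chemokine gene Ccl27a (0.97) were nearest to Mapk11. The splicing kinase gene Clk3 (0.97) and Fxyd7 (0.96), a regulator of the sodium pump, were nearest to E130012A19Rik. Ucp2 (0.95) and Abhd14b (0.93) were nearest to Pltp, Mical2 (0.96) and Satb1 (0.92) to Wfs1, and Hs6st2 (0.95) and Cdc42ep1 (0.93) to Filip1. Similarity within genotypes did not go with the genotype difference for every gene: Wfs1 was higher in BK KO, while Mical2 differed by -0.71 and Satb1 by -0.47. Tiam1 (0.64) also went opposite to Aifm3, Ucp2 (0.55) to Pltp and Cdc42ep1 (-0.62) to Filip1. The rest of these similar genes had the direction of their gene. Each r is the highest of many over 6 libraries and is given as a description.

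The actin neighbours of Coro6 and Filip1 were mostly not listed. Of 10 other coronins, filamins and a Filip1 relative, only Flnc, which encodes filamin C, was in the hippocampus table, at 0.389 ± 0.181 FPKM in WT and 0.836 ± 0.144 FPKM in BK KO (0.41), and it did not pass. None of 16 genes of actin turnover was in either table. The annotation put 10 hippocampus genes under actin cytoskeleton, Coro6 and Filip1 among them, 6 lower and 4 higher, and 5 passed. Over the 6 pathway lists with 103 entries, 5 were in the hippocampus table, of which 2 passed, both higher, and 2 were in the cortex table, of which 1 passed, lower. In all, 42.6% of the listed hippocampus genes and 30.8% of the listed cortex genes passed. All listed genes were selected by the authors on these libraries, so these counts are not independent evidence of a direction.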

How the data were processed

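Per the methods, mRNA was selected from total RNA of hippocampus and cortex by its poly(A) tail and sequenced in 3 WT and 3 BK KO libraries per tissue. The authors deposited, per tissue, a table of the genes they called different, with a level per library, a normalized signal per genotype (base mean, pooled over libraries), and their own fold changes and p-values, which were not used here. The submitters' processing notes name mm9, DESeq 1.10.1 and DESeq2; the aligner and counter are not given in the sources used here. The deposited per-library levels were taken as FPKM from their values: base mean per FPKM rose with the longest GENCODE transcript length (Spearman 0.60 over 625 hippocampus genes and 0.65 over 541 cortex genes). Whole reads could not be recovered, so depth is unknown.

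Genotypes were compared within a tissue by limma 3.58.1 (R 4.3.3) on log2(FPKM + 1) over every listed gene. Its standard errors are drawn towards a value shared by all listed genes. Those genes were selected as different, so the errors may be too small. The fit was tried on simulated data of mostly unchanged genes without that selection, so the trial does not give its error rate here. A gene passed at an unadjusted p under 0.05 and an absolute log2 difference over 0.58, the study's own limits. The 7 genes, the lists and the tests were chosen with earlier results of these data known. Named genes were the 7 genes, Kcnma1, the 2 most similar listed genes of each and the listed genes of the pathway and marker lists. Alternatives were other pseudocounts, a filter on low values, an intensity trend, rescaling, a stricter limit, a replicate block and leaving out each library. A marker of the CA1 list is not reported here.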

Additional observations from a re-analysis of the deposited data

How the results depend on the processing

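The counts past the threshold depended on the pseudocount and on the limit. With a pseudocount of 0.1 in place of 1, 548 hippocampus and 408 cortex genes passed, against 278 and 173. With a log2 limit of 1, 35 and 25 genes passed, and so did 4 of the 7 genes in hippocampus and 0 of the 3 in cortex. Rescaling, which can take out part of the genotype difference, left 1 of the 3 past the threshold in cortex. With a library left out, the counts ran from 230 to 282 genes in hippocampus and 135 to 180 in cortex, and from 6 to 7 and from 2 to 3 of the named genes. A replicate block gave 272 and 165 genes and 7 and 2 of the named genes, Aifm3 in cortex being lost. Same-numbered WT and BK KO libraries correlated at 0.02, 0.08 and -0.07 in hippocampus and -0.24, 0.12 and -0.22 in cortex. These values cover only genes selected as different, so they cannot show whether the numbers pair the samples. In hippocampus E130012A19Rik deviated by 0.49, -0.71 and 0.22 in WT libraries 1 to 3. In BK KO libraries 1 to 3 it deviated by 0.53, -0.71 and 0.18. With the block its SE went from 0.41 to 0.11, while that of Mapk11 went from 0.33 to 0.35. Over all alternatives, 114 values of the named genes moved by less than the spread between libraries, 6 moved by more and 0 reversed. Depth is unknown, so no limit of detection can be given.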

Other observations

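Within 100 kb of the 7 genes, the hippocampus table held 1 protein-coding neighbour, Hdac10 near Mapk11, at a distance of 13786 bp and with a log2 difference of -0.46. The p38 gamma gene Mapk12, 1783 bp from Mapk11, was in neither table. The cortex table held 1 neighbour of Pltp and 1 of Wfs1. That of Pltp was Tnnc2, at 59551 bp and with a log2 difference of -2.93, which is one of the skeletal muscle markers above. That of Wfs1 was Gm1043, at 96165 bp and with a log2 difference of -0.54.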
